A study of Homo sapiens with 12 samples.

Results

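The nuclear-encoded genes of the mitochondrial respiratory chain were examined in single human cells. They were chosen by name, as protein-coding nuclear genes with GENCODE symbols that begin with NDUF, UQCR, COX4, COX5, COX6, COX7, COX8 or ATP5, together with SDHA, SDHB, SDHC, SDHD, CYC1 and CYCS. This gave 100 of the 62700 genes of the annotation, and 96 of them held at least 1 unique molecular identifier (UMI) in any table, of 32946 genes that did. By name they were 38 genes of complex I, 8 complex I assembly factors (NDUFAF genes), 4 genes of complex II, 10 of complex III, cytochrome c (CYCS), 19 of complex IV, 19 of ATP synthase and the ATP synthase inhibitor ATP5IF1. The readthrough genes NDUFC2-KCTD14 and ATP5MF-PTCD1 are counted with complex I and ATP synthase, so these are counts of genes and not of distinct subunits. NDUFA4 and NDUFA4L2 were counted with complex IV.

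The respiratory chain sits in the inner mitochondrial membrane. Complexes I and II pass electrons to ubiquinone, complex III hands them to cytochrome c, and complex IV reduces oxygen, while ATP synthase uses the proton gradient built on the way to make ATP. Most of the subunits are encoded in the nucleus and imported, and they assemble with a small core of subunits encoded by mitochondrial DNA, so that each finished complex needs products of both genomes.

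The study set out a single-cell RNA-seq assay, LAST-seq, which amplifies RNA linearly by in vitro transcription, and compared it with CEL-seq2, an assay that also uses in vitro transcription. HEK293T, a human embryonic kidney line, was profiled by LAST-seq as live-sorted single cells in 2 replicates of 10 wells, as 15-pg total RNA in 10 wells and as lysate in 10 wells. The same line was profiled by CEL-seq2 as cells in 2 replicates of 10 wells and as lysate in 10 wells. By label, replicates of HEK293T cells differed in spike-in mix. LAST-seq replicate 1 had the A60 mix and replicate 2 the ERCC mix, while CEL-seq2 replicate 1 had both mixes and replicate 2 the ERCC mix. The haploid human line eHAP1 was profiled by LAST-seq as wild type (WT) in batches of 73 and 75 cells (148 in all) and as a Cas9 knockout (KO) of SCC4, a subunit of the cohesin loader whose gene symbol is MAU2, in batches of 77 and 76 cells (153 in all). The eHAP1 cells were sorted live, haploid and in G1, after growth from single-cell clones, whereas no cell cycle gate is given for HEK293T, and spike-in RNA was counted in the HEK293T wells only. Nothing in the labels says that replicates or batches came from separate cultures, so the p-values below measure a spread that may be technical.

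The wells held 18022 to 926415 gene UMIs, from which 84 to 90 respiratory chain genes per library reached a mean of 2 UMIs per well, 83 of them in every library. In the knockout check, MAU2 stood at 4.44 and 4.04 UMIs per 100000 in the WT batches and at 0.872 and 1.42 in the KO batches, a log2 change of -1.82 ± 0.50 (SE, edgeR adjusted p = 0.0399). These are 3′ UMIs, so they report the amount of transcript and not the edit. Of the kidney markers used to check HEK293T, PAX2 was at 0 and 0.167 per 100000 in HEK293T cells by LAST-seq and at 1.47 and 1.62 in WT eHAP1 cells, which goes against its use as a marker of the labelled line. LHX1 was at 0 and 0.831 against 0.758 and 0.895, NEFM at 0 in all of these and NEFL at 2.93 and 0.972 against 0 and 0. Of the blood markers PTPRC, SPI1, GATA1, CD33 and CD34, all 5 were at 0 in WT eHAP1 cells, and CD34 was at 0.103 and 0.105 in the KO batches with the others at 0. CD34 also stood higher in HEK293T than in WT eHAP1, at a log2 change of 8.84 ± 2.82 (SE), which goes against its use as a marker of eHAP1. Cell barcodes shared between eHAP1 batches numbered 70 to 75, and 0 to 10 were shared by other pairs of libraries.

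The eHAP1 batches stood apart from the other replicates in how closely they agreed. Over respiratory chain genes with at least 1000 UMIs, the variance between the batches was 0.243 times counting noise in WT cells (74 genes) and 0.106 times in KO cells (75 genes), against 12.4 times between the HEK293T LAST-seq replicates (35 genes) and 11.2 times between the CEL-seq2 replicates (14 genes). Independent counts cannot on average agree more closely than counting noise allows. The study's methods name ComBat-seq, which adjusts counts between batches, for eHAP1 cells. The batches of a genotype were therefore summed to 1 library here, and the spread for tests on eHAP1 was taken from the 2 HEK293T LAST-seq replicates. Those replicates differed in spike-in mix, so their spread cannot be told apart from an effect of the mix. They were also of another line and held far fewer cells than the eHAP1 sums. Whether their spread matches that between eHAP1 libraries was not tested. Values of the 2 batches are given beside each other only as a description.

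Respiratory chain genes took a small and steady part of the transcriptome in LAST-seq. Their share of all gene UMIs was 2.80% ± 0.0665 and 3.08% ± 0.0981 (SD over wells, n = 10 each) in the 2 replicates of HEK293T cells. It was 3.16% ± 0.0858 in 15-pg RNA and 3.16% ± 0.0967 in lysate. WT eHAP1 cells lay lower, at 2.56% ± 0.0620 (n = 73) and 2.59% ± 0.0722 (n = 75), and SCC4 KO cells between the 2 lines, at 2.75% ± 0.0874 (n = 77) and 2.75% ± 0.0731 (n = 76).

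**Figure D1:**
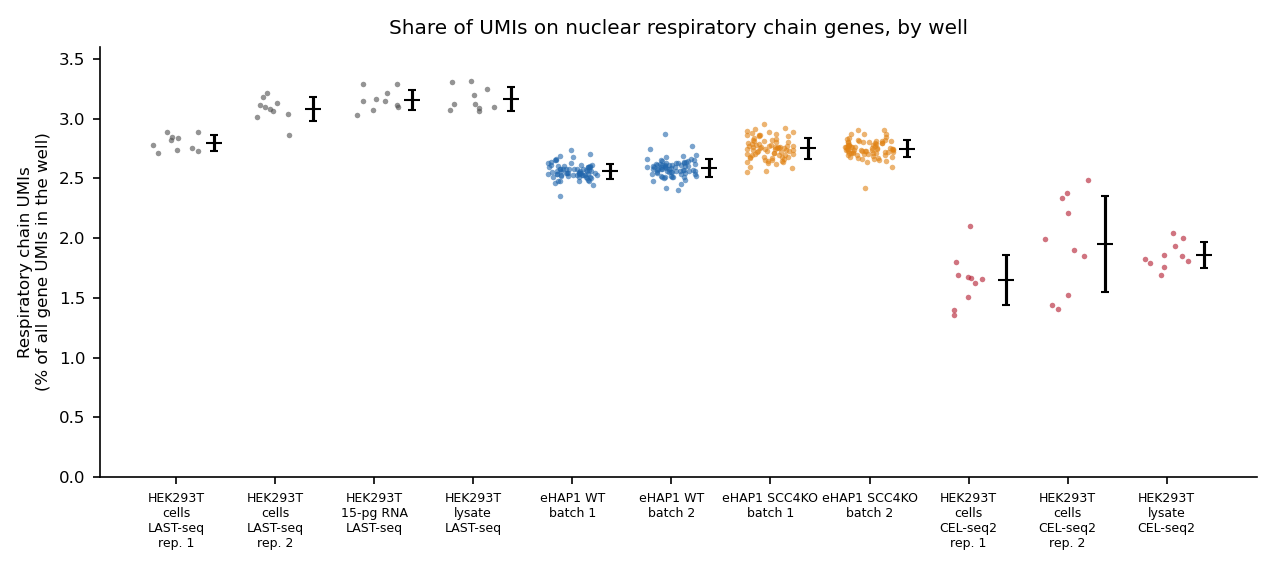
Share of gene UMIs on the respiratory chain genes (% of all gene UMIs in a well) for each of the 11 libraries, 1 point a well, with the mean and SD over wells drawn to the right of the points. The LAST-seq libraries average 2.56% to 3.16% and the CEL-seq2 libraries 1.65% to 1.95%, with the widest spread in CEL-seq2 replicate 2.

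In CEL-seq2 the share was lower and more uneven, at 1.65% ± 0.211 and 1.95% ± 0.400 in cells and 1.86% ± 0.110 in lysate (n = 10 each). Single CEL-seq2 cells ran from 1.36% to 2.10% and from 1.41% to 2.48%, and none reached the lowest mean of the LAST-seq libraries. The well-to-well coefficient of variation of the share was 1.15 to 2.13 times that of counting alone in the LAST-seq libraries and 6.25, 10.4 and 2.31 times in the 3 CEL-seq2 libraries, and the 2 highest were those of whole cells. The 3 highest respiratory chain genes of a library held 10.6% to 14.2% of the UMIs of the group, so the share was not set by a few genes.

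In WT eHAP1 cells 87 of the 100 genes had at least 2 UMIs per cell, and their median level was 20.8 UMIs per 100000 against 4.11 for the 6817 genes past the same minimum. All levels are 3′ UMIs not divided by transcript length, and each 3′ end can be captured with its own efficiency, so the order of genes below is one of counts and not of mRNA copies. The highest was COX7A2, a small subunit of complex IV, at 127 ± 13.6 and 130 ± 11.2 per 100000 in the 2 WT batches. UQCRH, the hinge protein of complex III, followed at 110 ± 13.7 and 112 ± 12.0. NDUFA1, an accessory subunit of complex I, ATP5MC2 and ATP5MC3 stood next at 95.6, 95.5 and 91.6 over all WT cells. ATP5MC2 and ATP5MC3, together with ATP5MC1, encode the same mature c subunit of the ATP synthase rotor. Neighbours in this order, such as NDUFA1 and ATP5MC2, differed by less than the SD over cells.

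**Figure D2:**
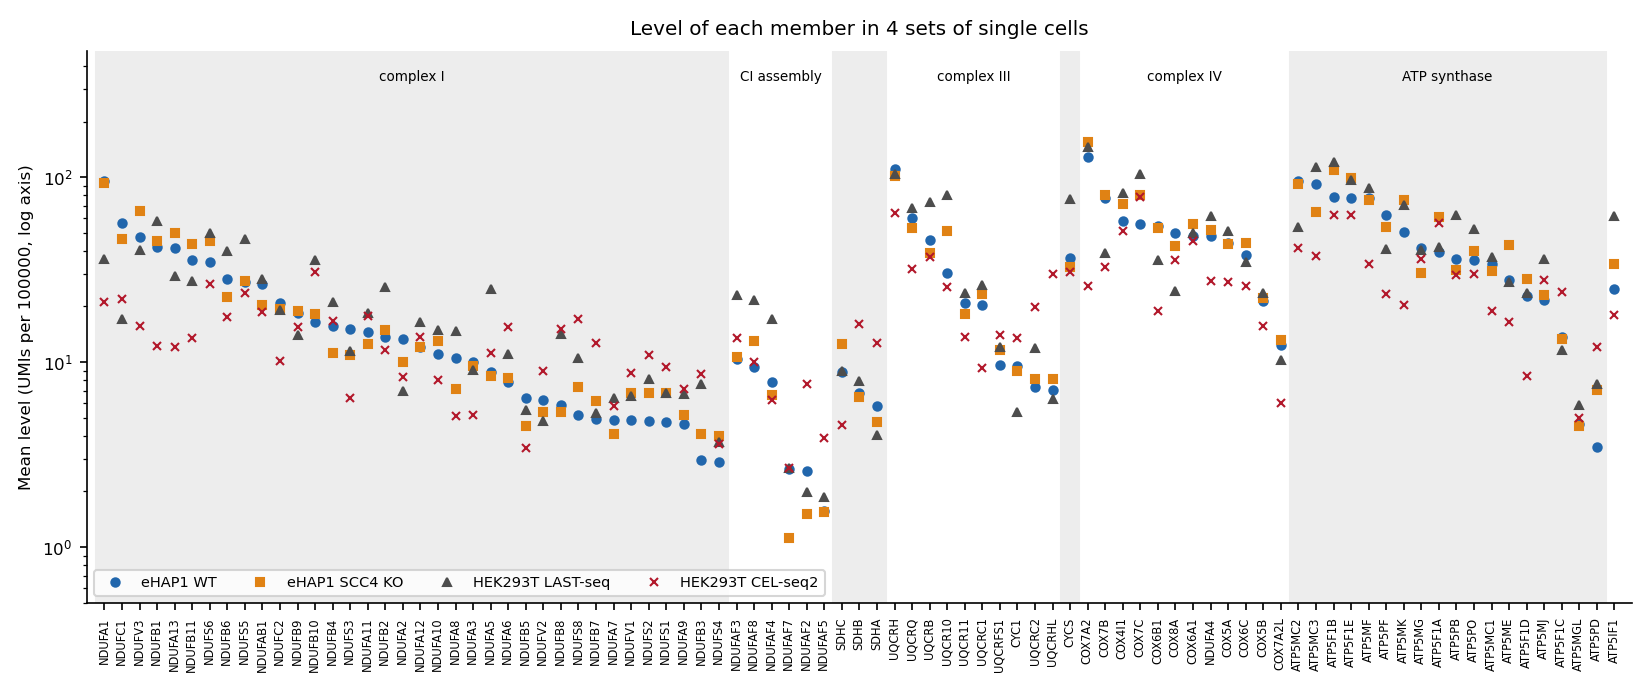
Mean level of each respiratory chain gene (UMIs per 100000, log axis) in WT eHAP1, SCC4 KO eHAP1, HEK293T by LAST-seq and HEK293T by CEL-seq2, averaged over wells and ordered within each complex by the WT level. Shaded bands separate the groups, the narrow ones being complex II and cytochrome c and the last gene ATP5IF1, and the crosses of CEL-seq2 lie far below the other symbols for COX7A2 and above them for UQCRHL.

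The lowest of the 87 were NDUFB3 at 2.96, NDUFS4 at 2.9, NDUFAF7 at 2.66, NDUFAF2 at 2.58 and NDUFAF5 at 1.58 per 100000, that is 2 subunits and 3 assembly factors of complex I. Assembly factors act in building the complex and are not part of it when finished. Complex II, whose 4 subunits also serve the citric acid cycle, was low as a whole: its summed level over pooled WT cells was 21.8 per 100000, against 323 for complex III, 642 for complex IV, 685 for complex I and 818 for ATP synthase. SDHA was at 6.03 ± 2.78 and 5.53 ± 2.2 per 100000 in WT cells, SDHC at 9.26 ± 2.95 and 8.44 ± 2.46, and SDHD, a membrane anchor, at 0.648 ± 0.821 and 0.3 ± 0.520.

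The paralogues known to be restricted to certain tissues had few UMIs or none. No UMI was found in any table for COX4I2, COX6A2 and COX7A1, forms known from lung or from heart and muscle, nor for the readthrough NDUFC2-KCTD14. Over all tables COX6B2 held 34 UMIs in 7 libraries, COX7B2 held 1, COX8C held 5, NDUFA4L2 held 35 in 4 libraries and ATP5MF-PTCD1 held 3. Their common forms were abundant, with COX4I1 at 58.0 ± 8.19 and 58.6 ± 7.15 per 100000 in WT cells, and NDUFA4 at 47.9 ± 7.77 and 47.7 ± 6.31. NDUFS7, a core iron-sulfur subunit of complex I, was, like SDHD, low among the core subunits, with 247 UMIs over all tables and a level of at most 0.842 per 100000 in any library. The 4 genes without a UMI have no row in the UMI tables, and whether they were in the annotation the authors counted with (GENCODE release 33) was not checked, so a 0 cannot be told apart from a gene that was not counted. Counts of 0 do not show that a transcript is absent.

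Near-identical copies make some values uncertain. UQCRHL, a retrocopy of UQCRH, took 5.06% to 7.77% of the UMIs of the pair by LAST-seq but 26.5% to 33.5% by CEL-seq2, and ATP5MGL took up to 13.5% of those of the pair with ATP5MG. Of 237 annotated pseudogenes with names built on these genes, 50 to 89 per library were counted, with 1.62% to 5.19% of the UMIs of genes and pseudogenes together. Which copy a read came from was not tested.

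Promoter sequences were taken from RefSeq (GRCh38.p14), which matched 79 of the 100 genes by symbol, from 250 bases before to 50 bases after the annotated start. Nuclear respiratory factor 1 (NRF1) and the ETS factor GABP are known regulators of this gene set, so the letters GCATGCGC (NRF1 core) and CCGGAAG (ETS core) were searched on both strands. The 2 motifs can overlap by no more than 1 end base. The NRF1 core was held by 16 of 79 promoters (20.3%), against 652 of 15345 protein-coding promoters (4.25%). The ETS core was held by 21 (26.6%), against 2210 (14.4%). Either core was held by 30 (38% against 17.7% of all), and both by 7 (8.86% against 0.978%): SDHB, SDHD, COX5B, COX6A1, ATP5ME, ATP5PF and NDUFAF4. These shares describe the sequences and say nothing of binding.

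From the promoters with both cores 3 are shown, 1 each for complex II, complex IV and ATP synthase, as the 250 bases upstream of the start. They lie at chr1:17054033-17054282 on the minus strand (SDHB), chr12:120437863-120438112 on the plus strand (COX6A1) and chr21:25735055-25735304 on the minus strand (ATP5PF), written 5′ to 3′ along the gene. Capitals mark the cores as found, GCATGCGC or its reverse complement GCGCATGC and CCGGAAG or its reverse complement CTTCCGG.
SDHB: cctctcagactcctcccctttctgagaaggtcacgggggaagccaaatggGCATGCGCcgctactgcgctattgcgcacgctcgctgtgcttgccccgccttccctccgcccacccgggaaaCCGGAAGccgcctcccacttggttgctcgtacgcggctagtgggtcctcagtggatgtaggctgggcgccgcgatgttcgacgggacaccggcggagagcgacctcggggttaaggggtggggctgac
COX6A1: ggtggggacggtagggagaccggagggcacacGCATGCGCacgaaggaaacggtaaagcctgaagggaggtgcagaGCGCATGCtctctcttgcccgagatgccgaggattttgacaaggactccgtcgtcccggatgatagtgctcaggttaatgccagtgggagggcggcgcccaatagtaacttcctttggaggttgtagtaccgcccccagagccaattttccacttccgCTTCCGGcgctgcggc
ATP5PF: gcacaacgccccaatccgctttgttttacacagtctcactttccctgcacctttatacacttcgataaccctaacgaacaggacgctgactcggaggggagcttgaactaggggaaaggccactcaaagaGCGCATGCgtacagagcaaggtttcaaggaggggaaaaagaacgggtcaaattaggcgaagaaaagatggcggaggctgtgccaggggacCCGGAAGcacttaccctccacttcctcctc
The COX6A1 stretch holds the NRF1 core at 2 places and the other stretches at 1 each, with the ETS core once in all 3. By complex, either core was found for 7 of 13 ATP synthase genes, 10 of 33 of complex I, 3 of 7 of complex III, 5 of 14 of complex IV, 2 of 3 of complex II, 2 of 7 complex I assembly factors and CYCS. ATP5IF1 held neither.

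Loss of SCC4 was compared with WT to ask whether expression changes when the cohesin loader is missing. No respiratory chain gene was called: edgeR with Benjamini-Hochberg adjustment called 0 of 92 tested at an adjusted p under 0.05, with 4 of 92 at an unadjusted p under 0.05, and DESeq2 called 0, with 2 at that unadjusted p. Over all 16817 genes tested 0.285% were called higher and 0.387% lower. The spread behind these calls came from the HEK293T replicates, smaller pools of another line. It may be wider than that of the eHAP1 sums, so 0 calls do not show that expression was unchanged. The fitted changes lay on both sides, 44 above and 48 below 0, with a median of -0.02 on the log2 scale against 0.00 over all genes. When the eHAP1 batches were instead used as replicates, 50 of 91 were called (24 higher and 26 lower), a count that rests on a spread between batches below counting noise.

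The 5 genes with the smallest p showed the size of what was seen. UQCR10, a small subunit of complex III, had 30.0 ± 6.41 and 30.6 ± 5.76 UMIs per 100000 in the WT batches and 51.0 ± 7.38 and 50.8 ± 5.99 in the KO batches. Its lowest KO cells, at 36.1 and 35.4, lay inside the WT range, which ended at 48.6 and 53.5 in the 2 batches, while the median KO cells, at 51.4 and 50.5, lay above every cell of WT batch 1 and below the highest of WT batch 2. The fitted log2 change was 0.67 ± 0.29 (SE, edgeR adjusted p = 0.532). ATP5MC3 was at 90.6 ± 12.4 and 92.7 ± 11.5 in WT and at 65.0 ± 10.8 and 64.7 ± 8.69 in KO cells, with a log2 change of -0.58 ± 0.27 (adjusted p = 0.612 by edgeR). ATP5PD, a stator subunit of ATP synthase, was at 3.48 ± 2.15 and 3.44 ± 1.45 in WT and 7.30 ± 3.49 and 6.80 ± 2.23 in KO cells, and its log2 change was 0.95 ± 0.46 (edgeR adjusted p = 0.674).

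The other 2 were an assembly factor and a catalytic subunit. NDUFAF7, a methyltransferase that acts early in the assembly of complex I, was at 2.18 ± 2.10 and 3.13 ± 2.30 in WT and 0.967 ± 1.45 and 1.28 ± 0.987 in KO cells, a log2 change of -1.34 ± 0.68 (edgeR adjusted p = 0.720). ATP5F1A, the alpha subunit of the catalytic head of ATP synthase, was at 39.2 ± 7.45 and 39.8 ± 7.18 in WT and 60.9 ± 11.9 and 61.0 ± 10.4 in KO cells, a log2 change of 0.55 ± 0.30 (edgeR adjusted p = 0.791). On sums of pooled cells, with a minimum mean of 2 UMIs per cell, ATP5PD was the only one of 87 respiratory chain genes 2-fold or more higher in KO cells and NDUFAF7 the only one lower by as much, where 3.31% and 3.62% of 6714 genes were.

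**Figure D3:**
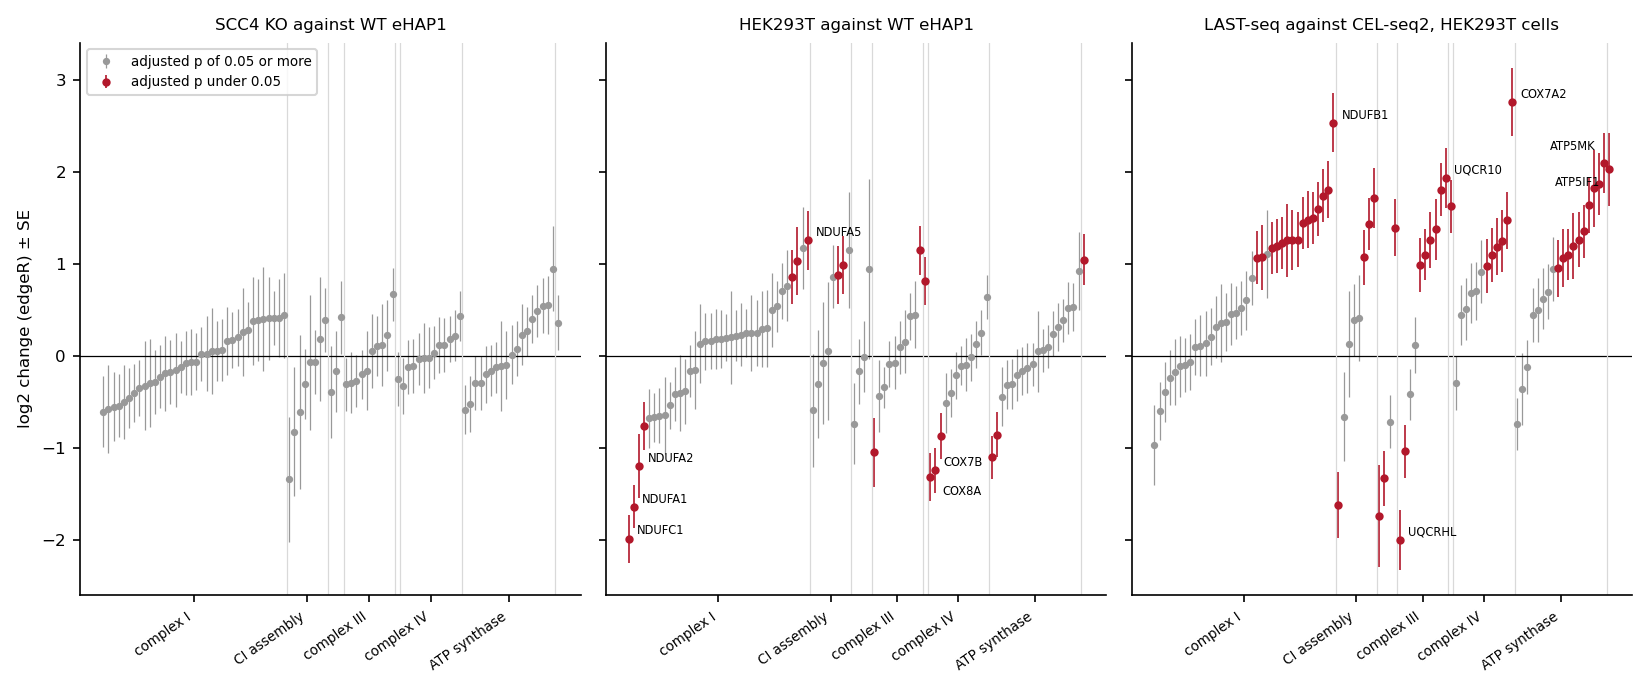
Fitted log2 change with its SE for each respiratory chain gene in 3 comparisons, grouped along the horizontal axis by complex and sorted within it, with red points past an adjusted p of 0.05 by edgeR. No point is red for SCC4 KO, 18 are red for HEK293T and 48 for LAST-seq against CEL-seq2, and genes with an SE of 1 or more are not drawn (NDUFS7 and NDUFA4L2 against WT eHAP1 in both, and SDHD for the KO).

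The share of respiratory chain UMIs still differed between genotypes as measured, with 150 of 153 KO cells above the median WT cell and 10 above the highest WT cell. With 1 library per genotype after summing, this shift has no replicate of its own. The 2 HEK293T LAST-seq replicates, of 1 line, also differed, at 2.81% and 3.08% of pooled UMIs. Pooled over cells the genes summed to 2590 UMIs per 100000 in WT and 2748 in KO cells, a ratio of 1.06. Of the genes, 52 stood higher in the KO, by 319.8 per 100000 in sum, and 43 lower, with a sum of differences of -161.1. The differences were spread unevenly over the chain. Complex IV went from 642 to 714 (ratio 1.11) and ATP synthase from 818 to 882 (1.08). Complex III was at 323 in both (0.999), complex I at 685 and 701, and CYCS at 37.0 and 32.7 (0.885). Between the HEK293T LAST-seq replicates complex IV was at 636 and 690, ATP synthase at 887 and 975 and complex I at 665 and 739. The genotype differences by complex were of a like size to these gaps or smaller, and are given as a description only. ATP5F1B, the catalytic beta subunit, had the largest difference, 31.1 per 100000 higher in KO cells at 109 ± 14.6 and 110 ± 11.3 against 76.9 ± 10.4 and 78.5 ± 9.52. COX7A2 was next, 25.7 per 100000 higher, with ranges over cells of 84.7 to 169 in WT batch 1 and 124 to 208 in KO batch 1 that overlapped. ATP5MC3 had the largest difference the other way, 27.5 per 100000 lower. Of the other genes for the same mature protein, ATP5MC2 was at 94.9 ± 11.4 and 96.0 ± 9.82 in WT and 91.3 ± 12.7 and 91.5 ± 10.7 in KO cells. ATP5MC1 was at 34.1 per 100000 in pooled WT cells and 31.2 in pooled KO cells.

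HEK293T and WT eHAP1 were compared as 2 unrelated lines. The comparison uses the same WT libraries as the one with the KO. HEK293T grew in DMEM, and eHAP1 in IMDM, with a compound added upon subcloning to keep cells haploid. The line cannot be told apart from these culture conditions, the pool size, the cell cycle gate, the spike-ins and the batch adjustment, all of which went with it. By edgeR 18 of 92 genes were called: 8 higher in HEK293T, where 5.03% of the 16817 genes tested were, and 10 lower, where 9.28% were. The median log2 change was 0.06 against -0.15 over all genes. The split rests on scaling. With total UMIs in place of TMM (trimmed mean of M-values) factors, 17 were higher and 5 lower, with a median of 0.31 against 0.07 over all genes, and with the spread taken from the LAST-seq and CEL-seq2 replicates together 0 were higher and 3 lower. DESeq2 called 6 higher and 7 lower.

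The genes higher in HEK293T were led by UQCR10, at 78.2 ± 6.10 and 81.1 ± 3.25 UMIs per 100000 against 30.0 ± 6.41 and 30.6 ± 5.76 in WT eHAP1, a log2 change of 1.15 ± 0.26 (edgeR adjusted p = 0.000235). Every HEK293T cell, from 73.7 up, lay above every WT cell, the highest of which was at 53.5. NDUFA5, a subunit of the peripheral arm of complex I, was at 25.6 ± 5.38 and 23.9 ± 2.97 against 8.64 ± 3.53 and 8.97 ± 3.12, a log2 change of 1.26 ± 0.32 (edgeR adjusted p = 0.00141). ATP5IF1, which blocks ATP hydrolysis by ATP synthase, was at 59.9 ± 8.55 and 62.8 ± 6.17 against 24.9 ± 6.01 and 25.1 ± 4.43, a log2 change of 1.05 ± 0.27 (edgeR adjusted p = 0.00176). CYCS, the mobile electron carrier that also acts in apoptosis, was at 71.7 ± 13.6 and 80.1 ± 12.1 against 36.4 ± 6.79 and 36.4 ± 5.72, a log2 change of 0.82 ± 0.26 (edgeR adjusted p = 0.0168).

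The other genes called higher were 2 subunits and 2 assembly factors of complex I. The subunits NDUFB10 and NDUFB8 of its membrane arm had log2 changes of 0.87 and 1.04, and the assembly factors NDUFAF8 and NDUFAF3 of 0.99 and 0.88 (edgeR adjusted p between 0.0174 for NDUFAF8 and 0.0394 for NDUFAF3). In the 15-pg RNA and lysate wells of HEK293T, UQCR10 was at 71.7 and 67.5 and ATP5IF1 at 89.6 and 89.8 per 100000, again above WT eHAP1 cells. CYCS was at 55.6 and 53.1 and NDUFA5 at 14.9 and 14.4 there, lower than in the HEK293T cells and higher than in WT eHAP1.

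Genes lower in HEK293T were led by 2 accessory subunits of complex I. NDUFC1 was at 16.2 ± 2.14 and 17.8 ± 3.18 per 100000 against 55.8 ± 10.5 and 56.7 ± 9.5 in WT eHAP1, and its log2 change of -1.98 ± 0.26 had an edgeR adjusted p of 2.96e-12. NDUFA1 was at 33.5 ± 6.47 and 39.2 ± 8.85 against 94.8 ± 13.6 and 96.5 ± 13.4, a log2 change of -1.64 ± 0.24 (edgeR adjusted p = 2.49e-10). For both, the highest HEK293T cell (22.7 and 47.6) lay below the lowest WT cell (34.0 and 49.9).

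Of complex IV, COX8A at a log2 change of -1.31, COX7B at -1.24 and COX6B1 at -0.87 were lower, and of ATP synthase ATP5MC2 at -1.10 and the coupling factor ATP5PF at -0.85. COX7B was at 30.3 ± 5.42 in HEK293T replicate 1 and 47.3 ± 5.04 in replicate 2, a gap between replicates larger than the SD over cells, against 76.5 ± 11 and 77.6 ± 9.75 in WT eHAP1. NDUFA2 (-1.19), NDUFA13 (-0.76) and CYC1, the haem-bearing cytochrome c1 of complex III (-1.04), completed the 10, with edgeR adjusted p-values of 0.00685, 0.0298 and 0.0405. Without WT batch 2 the adjusted p of NDUFA13 and of CYC1 rose to 0.0547 and 0.0574 by edgeR.

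By group, 3 of 37 complex I subunits were higher and 4 lower, 2 of 8 assembly factors were higher, none of 4 complex II subunits was called, 1 of 10 complex III genes was higher and 1 lower, 3 of 13 complex IV genes were lower and 2 of 18 ATP synthase genes were lower, with ATP5IF1 and CYCS higher. Summed over pooled cells, CYCS stood 2.09 times, ATP5IF1 2.45 times and the assembly factors 1.97 times as high in HEK293T as in WT, complex III 1.27 times, ATP synthase 1.14 times and complexes I, II and IV 1.03 times. Past 2-fold on sums, 12 of 89 genes were higher (19.9% of 7382 genes) and 3 lower (13.2%): NDUFC1, NDUFA1 and COX8A.

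LAST-seq and CEL-seq2 were compared on HEK293T cells to see how the assay itself sets these levels. By edgeR 48 of 90 genes were called, 43 higher in LAST-seq, where 11.3% of the 11270 genes tested were, and 5 lower, where 14.8% were. The median log2 change was 0.93 against -0.05 over all genes, and with total UMIs in place of TMM it was 0.61 against -0.41, with 28 higher and 8 lower. DESeq2 called 42 higher and 3 lower. The number of calls fell to 12 without LAST-seq replicate 1 and to 5 without LAST-seq replicate 2, with medians of 0.91 and 0.83.

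COX7A2 moved most. It was at 139 ± 22.7 and 153 ± 23.6 UMIs per 100000 by LAST-seq against 19.3 ± 7.53 and 32.1 ± 12.0 by CEL-seq2, with 169 ± 13 in 15-pg RNA and 147 ± 12.9 in lysate by LAST-seq and 22.8 ± 5.39 in lysate by CEL-seq2. The lowest LAST-seq cell, at 111, lay above the highest CEL-seq2 cell, at 52.7, and the log2 change was 2.77 ± 0.37 (edgeR adjusted p = 0.00159). NDUFB1, a membrane-arm subunit of complex I, was at 57.2 ± 6.97 and 58.5 ± 6.82 against 10.6 ± 5.01 and 13.8 ± 4.61, a log2 change of 2.54 ± 0.32 (edgeR adjusted p = 0.00126), and the cells of the 2 assays did not overlap.

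Among the next, ATP5MK, a small membrane subunit of ATP synthase, had a log2 change of 2.10, UQCR10 of 1.94, ATP5MC3 of 1.87, UQCRC1, a core subunit of complex III, of 1.81, NDUFA8 of 1.81, NDUFV3 of 1.75, ATP5MF of 1.64 and CYCS of 1.63, with edgeR adjusted p-values between 0.00274 for ATP5MK and 0.00519 for ATP5MF. By group, 15 of 36 complex I subunits were higher and 0 lower, 6 of 12 complex IV genes higher and 0 lower, 10 of 18 ATP synthase genes higher and 0 lower and 6 of 10 complex III genes higher and 2 lower.

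The 5 other genes ran the other way, and 2 of them were subunits of complex II. SDHA, the flavoprotein subunit, was at 3.84 ± 1.51 and 4.24 ± 1.54 by LAST-seq against 13.7 ± 4.76 and 11.7 ± 4.62 by CEL-seq2, a log2 change of -1.33 ± 0.30 (edgeR adjusted p = 0.0114). SDHD was at 1.37 ± 0.905 and 0.538 ± 0.409 against 4.69 ± 1.62 and 3.90 ± 1.54, a log2 change of -1.74 ± 0.55 (edgeR adjusted p = 0.0441). SDHC was 1 of the 43 called higher, so the subunits of this complex split by assay. UQCRHL was at 7.16 ± 3.42 and 5.48 ± 2.40 against 25.9 ± 7.40 and 34.1 ± 13.1, a log2 change of -2.0 ± 0.32 (edgeR adjusted p = 0.00336), while its parent UQCRH was at 102 ± 9.92 and 105 ± 11 against 61.2 ± 13.5 and 67.4 ± 21.2. NDUFAF2 (-1.62) and CYC1 (-1.03) were the other 2.

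Genes that work with the chain outside the name rule were read in the same fits. Of the 13 subunits encoded by mitochondrial DNA, 10 were lower in HEK293T than in WT eHAP1 and 0 higher, with a median log2 change of -0.87, among them MT-ATP8 at -2.25, MT-ND1 at -1.76 and MT-CO3 at -1.54. In the KO comparison 0 of the 13 were called, and between assays 6 were higher in LAST-seq, MT-ND3 at 3.0 among them, and 1 lower, MT-ATP8 at -1.30. Of 33 assembly factors outside the rule 32 were tested in HEK293T against WT, of which SURF1 (-2.41) and COX17 (-0.86) were lower. Over all genes tested there 9.28% were lower, so 2 of 32 is no finding about these factors. In LAST-seq against CEL-seq2, COX17, COX15, COX14, SCO1, TMEM70 and SDHAF2 were higher, 6 of 30 tested, against 11.3% of all genes tested. Of 12 regulators 9 or 10 were tested, NRF1 and GABPA among them, and edgeR called none in any comparison.

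Members with and without a promoter core had overlapping changes. The median log2 change in HEK293T against WT was -0.09 with either core (30 genes) and 0.17 with neither (44 genes), and in the KO it was -0.10 and 0.02. Between assays it was 0.95 (29 genes) and 0.71 (44 genes).

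Coordination between cells was read as the Spearman correlation over wells between pairs of respiratory chain genes with a mean of at least 2 UMIs, as levels scaled to total UMIs. In LAST-seq the pairs showed next to none. The median over 3655 and 3828 pairs was -0.0017 and 0.0095 in the WT batches (73 and 75 cells), 0.0079 and 0.0093 in the KO batches and between -0.0061 and 0.0061 in the 4 HEK293T libraries, against 0.0006 to 0.0061 over all gene pairs. Between 49.6% and 53.4% of pairs were positive. Pairs share the depth and the total of their well, and in counts this low weak correlations are no finding.

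**Figure D4:**
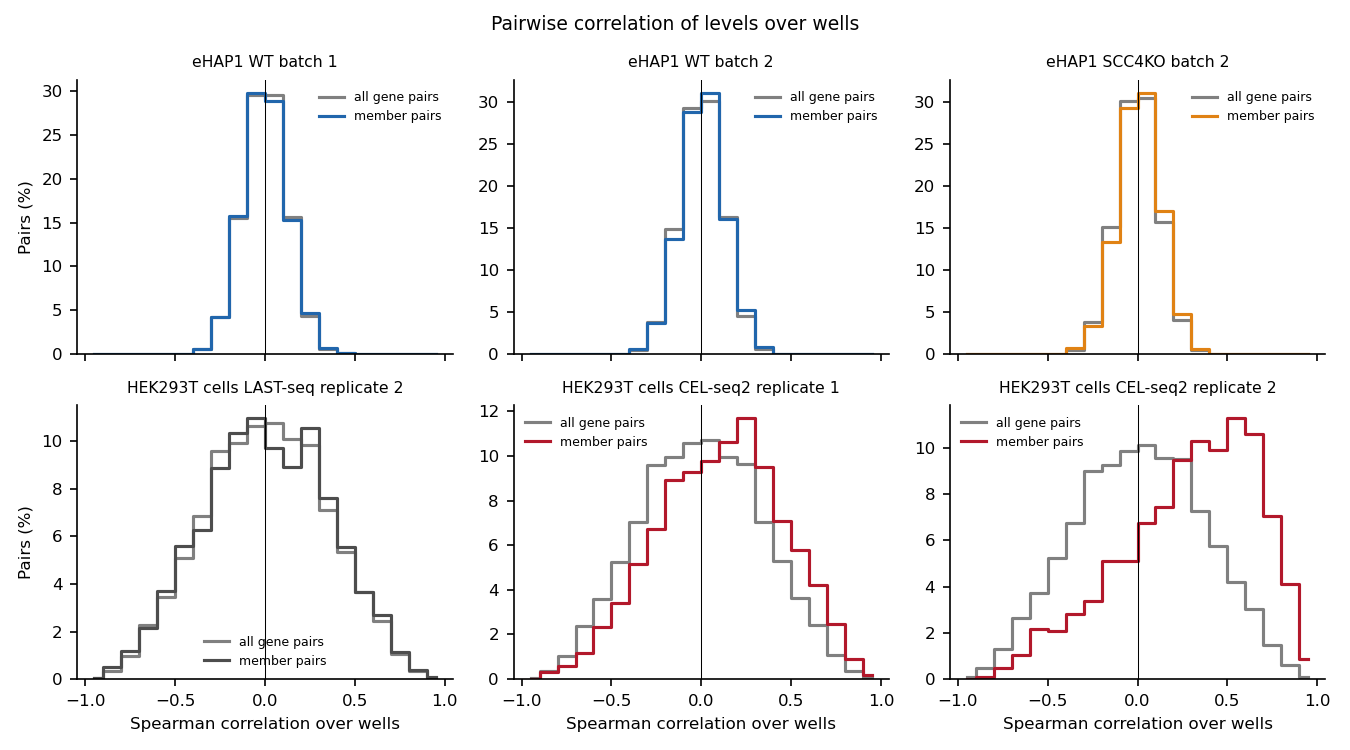
Distribution of the Spearman correlation over wells (share of pairs in %) for pairs of respiratory chain genes, in colour, and for all pairs of genes past the same minimum, in grey, in 6 of the 11 libraries. In the eHAP1 and HEK293T LAST-seq panels the lines lie on each other, with medians of -0.0017 to 0.0095 for the respiratory chain pairs, whereas in CEL-seq2 the coloured line moves right, to medians of 0.115 and 0.333.

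Whole cells in CEL-seq2 differed. There the median was 0.115 in replicate 1 and 0.333 in replicate 2 (4005 pairs, 10 cells each), against 0.0061 and 0.0182 over all gene pairs, and 62.1% and 77.8% of pairs were positive, against 50.04% and 51.5%. In wells thinned to 60000 UMIs the medians were 0.0703 and 0.261, with 57.4% and 74.6% of pairs positive. In CEL-seq2 lysate the median was 0.0182 and 52.6% of pairs were positive. The labels do not say whether lysate wells were portions of 1 lysate. The variance between wells over counting noise, whose median over pairs of wells was 4.28 and 6.03 in the CEL-seq2 cells, 1.98 in CEL-seq2 lysate and 1.16 to 1.53 in the LAST-seq libraries, moved with this, as did the spread of the share given above. Their part in the correlation was not tested.

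Genes of 1 complex were no more alike than genes of different complexes in WT cells, with medians of -0.0027 and 0.0065 within complexes against -0.0007 and 0.0106 between them in the 2 batches. In correlation with the sum of the other genes over WT cells, the highest on average over batches were ATP5F1E (0.230), COX7A2L (0.224), ATP5IF1 (0.218), COX5A (0.216) and NDUFC2 (0.189). The lowest were NDUFV3 (-0.260), NDUFS4 (-0.253), ATP5PF (-0.171), CYC1 (-0.168) and UQCRC2 (-0.152). The batches gave different values for several: ATP5F1E was at 0.119 and 0.341 and ATP5PF at -0.370 and 0.029. Of pairs highest in both batches, COX7B with NDUFA3 led in WT cells, at 0.306 and 0.260, and ATP5MG with its near-identical copy ATP5MGL in KO cells, at 0.251 and 0.315.

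Mitochondrially encoded RNA made up 20.8% and 21.3% of UMIs in the WT batches, 21.0% and 21.2% in the KO batches, 16.8% and 14.4% in HEK293T cells by LAST-seq and 7.49% and 9.0% by CEL-seq2. Ribosomal RNA was 2.54% to 8.17% of these UMIs by LAST-seq and 18.6% to 22.3% by CEL-seq2. To ask whether nuclear and mitochondrial transcripts of the chain rise and fall together from cell to cell, respiratory chain UMIs per non-mitochondrial UMI were set against this share over wells. In eHAP1 the Spearman correlation was 0.116 and -0.0644 in the WT batches and -0.0944 and 0.0303 in the KO batches, so no direction held over batches.

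**Figure D5:**
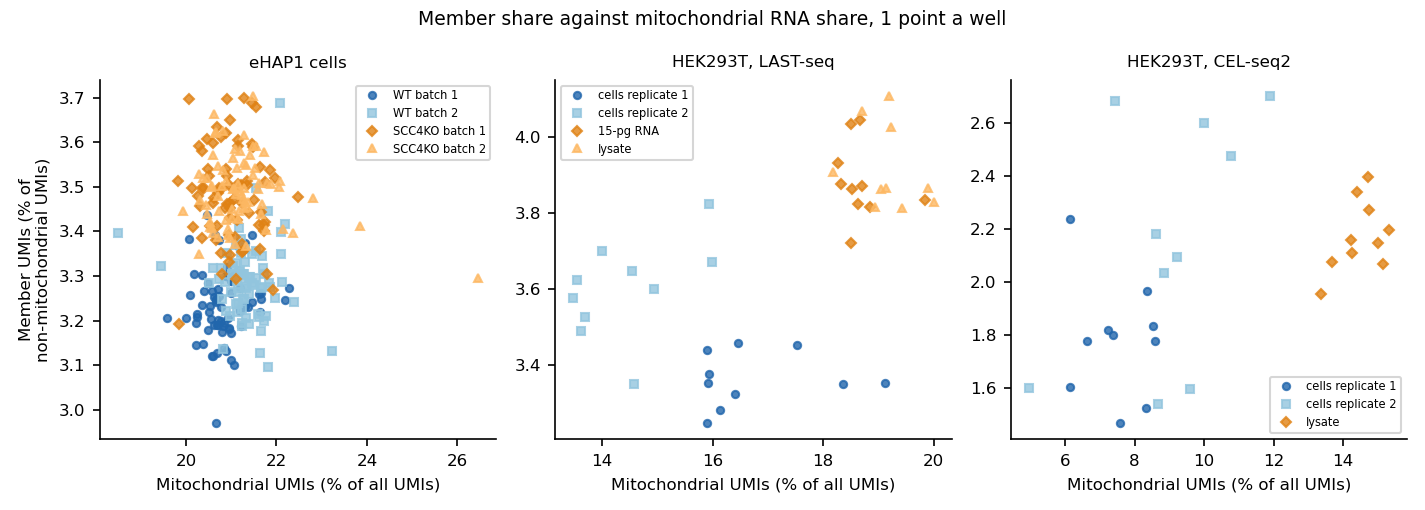
Respiratory chain UMIs (% of non-mitochondrial UMIs) against mitochondrial UMIs (% of all UMIs), 1 point a well, for eHAP1 cells, HEK293T by LAST-seq and HEK293T by CEL-seq2, with axes that differ between panels and do not start at 0. Within each library the points form clouds without a common slope, with Spearman correlations of -0.0944 to 0.116 in eHAP1, while most KO cells lie above most WT cells at a like mitochondrial share.

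In HEK293T the same correlation was 0.200 and 0.430 in LAST-seq cells, -0.370 in 15-pg RNA, -0.321 in lysate, -0.0303 and 0.382 in CEL-seq2 cells and 0.333 in CEL-seq2 lysate, over 10 wells each. Wells of pure RNA hold no difference between cells, and for lysate the labels do not say. Without the 2 wells of most extreme mitochondrial share it was 0.548 and 0.0238 in LAST-seq cells, -0.214 in 15-pg RNA, -0.167 in lysate, 0.262 and 0 in CEL-seq2 cells and -0.143 in CEL-seq2 lysate, so that the values for CEL-seq2 lysate and replicate 1 changed sign. Gene by gene, 41 of 86 and 36 of 88 genes were positive in the WT batches, near the 48.2% and 43.5% of all genes. CEL-seq2 replicate 2 stood out, with 69 of 90 genes positive (76.7%) against 46.5% of all genes, and replicate 1 had 44 of 90 against 49.9%. The share also followed total UMIs in CEL-seq2 replicate 1, at 0.673, and not in replicate 2, at 0.0909.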

How the data were processed

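Deposited UMI counts per gene and well were used as the authors gave them. The authors demultiplexed with bcl2fastq 2.20, aligned to GRCh38 with GENCODE release 33 through zUMIs, counted exonic reads and collapsed UMIs by identity, and their methods name ComBat-seq for eHAP1. Their methods also name subsampling of reads to equal depth for LAST-seq, SMART-seq and CEL-seq. The deposited wells of WT batch 2 ran from 18022 to 926415 gene UMIs, so the counts used here are not of equal depth. UMIs at 3′ ends carry no length correction, and 10-well and larger pools were made separately, so the assay and pool can set a level. SMART-seq read tables were not used here, nor are ERCC spike-in rows (at most 5.92% of a well) part of any total. No column of values was left without a sample (0 columns). Symbols came from GENCODE release 44.

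Levels are UMIs per 100000 gene UMIs of a well, given as the mean ± SD over wells, which covers cells of 1 library and not replicates of a condition. Fits across all genes used edgeR 4.0.16 in R 4.3.3 (TMM, filterByExpr, quasi-likelihood test, Benjamini-Hochberg adjustment over all genes tested, threshold 0.05). The design fixed for eHAP1 used its batches as replicates. As these agree more closely than counting noise allows, each genotype was summed to 1 library and the spread taken from the 2 HEK293T replicates, and the designed fit is an alternative. Named genes were, per comparison, the 10 called genes of smallest adjusted p in each direction, or the 5 of smallest p where fewer than 5 were called, the 5 highest and 5 lowest in WT cells, the 5 most and 5 least correlated with the rest, paralogues and MAU2. Genes named for differences of pooled sums or in a pair of highest correlation, and MT- genes and assembly factors with values, were chosen after their values were seen. The genes and lists were chosen with earlier results of these data known. Alternatives were DESeq2 1.42.0, no TMM, other filters, wells thinned to 60000 UMIs, equal weight per cell, a 2-fold threshold with 0.5 UMI added, other sources of spread and leaving out libraries or wells. Scripts were tested on simulated data. No label ties a WT batch to a KO batch of the same number. Python 3.11.15, pandas 2.3.3, numpy 2.4.6, scipy 1.17.1 and matplotlib 3.10.9 were used.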

Additional observations from a re-analysis of the deposited data

How the results depend on the processing

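No direction of a named gene reversed under any alternative run. For genes named in HEK293T against WT, 225 of 270 values were rated the same, 34 lost significance and 11 moved. For LAST-seq against CEL-seq2, 134 of 165 were the same, 20 lost significance and 11 moved. For SCC4 KO, 65 of 80 were the same and 15 became called. A value was rated the same if its call held. In runs without a p-value there was no call to keep, and it was rated the same within 1 SE of the main log2 change and moved beyond it. The number called in HEK293T against WT, 18, was 46 with all 6 libraries in 1 fit, 37 with batch sums as designed and 3 with the spread from LAST-seq and CEL-seq2 replicates. In LAST-seq against CEL-seq2, 48 became 31 past 2-fold and 5 to 58 when 1 library was left out. In the KO, 0 became 2 past 2-fold, 25 with all 6 libraries, 50 with batch sums as designed and 46 with a replicate block by batch number. The block removes a spread already below counting noise, and the numbers pair nothing in the labels, so these counts are not read as pairing. The median log2 change in HEK293T against WT, 0.06, was 0.29 with equal weight per cell, 0.31 without TMM, -0.036 in thinned wells and -0.031 to 0.15 with 1 library left out. For LAST-seq against CEL-seq2, 0.93 was 0.62 with equal weight, 0.61 without TMM and 0.64 to 1.12 with 1 library left out. For the KO, -0.02 was 0.052 with equal weight, 0.048 without TMM and -0.076 to 0.020 with 1 library left out. The cause of these moves was not tested.

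The median pair correlation in HEK293T LAST-seq cells, 0.00, was 0.012 without the 2 wells of most extreme total. In KO cells, 0.0086, it was 0.0075 by Pearson, 0.0099 from 5 UMIs, 0.0099 for genes with 2 UMIs in every table, 0.0053 on non-mitochondrial UMIs and 0.0059 thinned. The mean correlation with the mitochondrial share, 0.32 in HEK293T LAST-seq cells, was -0.10 on all UMIs and 0.12 thinned. In KO cells, -0.03, it was -0.14 by Pearson and -0.28 on all UMIs, and in WT cells, 0.03, it was -0.21 on all UMIs, where the mitochondrial UMIs are part of the divisor. The share, 2.94% in HEK293T, 2.75% in KO and 2.57% in WT cells, was 3.48%, 3.49% and 3.26% of non-mitochondrial UMIs and 2.57%, 2.38% and 2.25% without the 3 highest genes. The other 89 values kept their side of the threshold or their spread. In HEK293T against WT, counts with 1 HEK293T replicate left out could not be fitted for want of residual degrees of freedom. Depth limits SDHD, NDUFS7 and NDUFAF5, with few UMIs per well.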

Other observations

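Wells of RNA and lysate were set beside the HEK293T cells. In 15-pg RNA, where every well holds the same material, the respiratory chain share varied 1.60 times as much as counting alone allows, and in LAST-seq lysate 1.52 times. HEK293T cells varied 1.45 and 2.13 times. WT eHAP1 cells varied 1.15 and 1.62 times and KO cells 1.48 and 1.68 times. As eHAP1 batches agree more closely than counting noise allows, the eHAP1 ratios cannot be set against those of the RNA and lysate wells. ATP5F1B was at 123 ± 14.8 and 118 ± 12.8 UMIs per 100000 in HEK293T cells (SD, n = 10 wells each) but at 66.6 ± 5.88 in 15-pg RNA and 71.2 ± 11.1 in lysate, and ATP5IF1 ran the other way, at 59.9 ± 8.55 and 62.8 ± 6.17 in cells and 89.6 ± 9.87 and 89.8 ± 8.86 in RNA and lysate. These genes were chosen after their values were seen, and no test was run.

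In the eHAP1 tables a gene held exactly 2 UMIs in a cell less often than 3: the ratio of such entries was 0.977, 0.509, 0.572 and 0.819 in the 4 batches, against 1.39 to 1.64 in the other libraries. The cause was not tested. Of UMIs shared by UQCRB and its pseudogene UQCRBP1, the pseudogene took 24.6% to 32.6% in LAST-seq and 4.29%, 12.0% and 17.1% in the CEL-seq2 libraries.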
